A study of Mus musculus with 6 samples.

Results

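The 50 genes described here are effector genes of the erythroid, megakaryocyte, mast cell and basophil, and eosinophil lineages, measured in cultured mouse stem and progenitor cells with and without added HLX, a homeobox transcription factor. They were taken by symbol, 16 erythroid, 16 megakaryocyte, 15 mast cell and basophil and 3 eosinophil genes, out of 19938 genes with a named probeset on the array. For 46 of the 50 a probeset with a single gene symbol was present. Gp1ba, Gp1bb, Gp6 and Selp, all megakaryocyte genes, had none and were not analysed here.

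Wild-type FVB/nJ mice, described as young adult, gave the bone marrow, from which lineage-negative, Kit-positive, Sca-1-positive cells were sorted. The control group (3 arrays) received the lentivirus pCAD-IRES-GFP, and the HLX group (3 arrays) received a lentivirus with mouse HLX, written pCAD-HLX-IRES-GFP in the sample labels and pCAD-IRES-GFP-Hlx in the design text. Both groups were infected with 8 µg/ml polybrene in medium that held serum and the mouse cytokines IL-6, SCF and IL-3, and 2 days later the GFP-positive cells were collected. Erythropoietin and thrombopoietin are not among the additions the labels name. Which promoter drives the insert is not stated there, and the HLX cells kept their own Hlx gene. The labels do not tie replicates to separate mice or cultures, so p-values measure only the spread among these 6 samples, and that spread may be technical. The study asked which genes change when HLX is overexpressed in such cells.

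Red cells, platelets and mast cells or basophils all descend from progenitors that use GATA transcription factors, and each lineage then adds its own factors and effector proteins. Erythroid cells switch on KLF1, the erythropoietin receptor, haem synthesis and the membrane proteins of the red cell. Megakaryocytes make granule chemokines, the receptor for von Willebrand factor and a specialised tubulin. Mast cells and basophils store histamine and proteases in granules and carry the high-affinity IgE receptor. Stem and multipotent progenitor cells can hold low levels of such transcripts before commitment, which is often called lineage priming.

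Hlx was at log2 levels of 6.99, 7.29 and 7.62 on the control arrays and 10.75, 9.74 and 10.28 on the HLX arrays, 7.75-fold higher with the HLX vector, with an adjusted p from limma of 0.0782. The arrays were otherwise alike, with medians over all probesets between 6.32 and 6.40 and pairwise correlations between 0.980 and 0.987. Among the sorting markers, Kit was at 9.41 ± 0.18 with the control vector and 9.50 ± 0.16 with the HLX vector (SD, n = 3 each). Ly6a, which encodes Sca-1, had no probeset with a single gene symbol and was not analysed here. Of the stem and progenitor markers, 8 of 9 measured lay above the level of unused genes defined next.

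After 2 days of culture, most measured erythroid and megakaryocyte members gave signal above a yardstick of unused genes. Nearly all mast cell, basophil and eosinophil effector genes did not. The array has no detection call, so the 1027 olfactory receptor genes, which blood cells are not known to use, served as a yardstick. The off level is the 95th percentile of their mean log2 levels, 6.29 on the control arrays and 6.22 on the HLX arrays. Where single arrays are counted, the same percentile was taken on each array, which gave 6.18 to 6.31. With the control vector 13 of 16 erythroid, 10 of 12 megakaryocyte, 2 of 15 mast cell and basophil and 0 of 3 eosinophil members lay above it. With the HLX vector the counts were 12, 10, 2 and 0. Over all 19938 genes 57.6% lay above the off level with the control vector and 58.8% with the HLX vector, against 54.3% and 52.2% of the members, so the share of members was near the background. Probes differ in brightness, so these levels say whether a probeset exceeds the yardstick and do not rank genes by amount of RNA. Nor does passing it show by itself that a program is on. Of 8 stromal and endothelial markers 3 passed with the control vector, among them the collagen genes Col1a1 at 7.23 and Col1a2 at 6.99. The highest olfactory receptor gene averaged 8.92 there.

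Several members lay close to the yardstick. Klf1 lay 0.06 above it with the control vector and 0.07 below it with the HLX vector, the one of those named here to change sides. The erythroid genes Alas2 and Icam4 lay 0.16 and 0.20 above it with the control vector, and the megakaryocyte gene Ppbp 0.20. On the other side, Hdc lay 0.09 and Tpsb2 0.25 below it. With the 99th percentile of the olfactory receptor genes in its place, 12 members stayed above it in each group, 5 erythroid, 6 megakaryocyte and 1 mast cell and basophil gene. The erythroid count went from 13 to 5 with the control vector and from 12 to 5 with HLX.

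**Figure D1:**
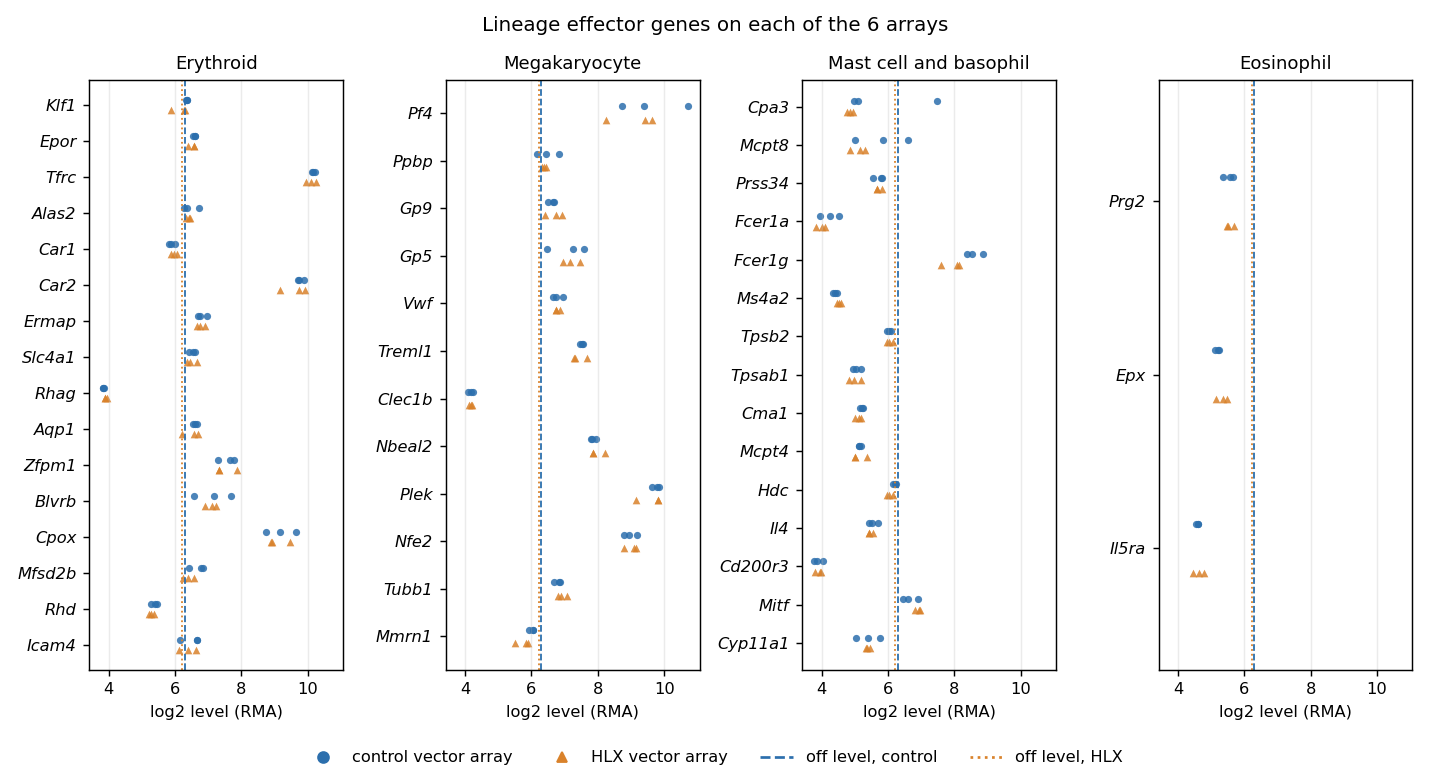
Log2 RMA level of the 46 measured members on each array, with control arrays as circles and HLX arrays as triangles, and the off levels of 6.29 (control, dashed) and 6.22 (HLX, dotted) as vertical lines. Tfrc, Car2, Cpox, Pf4, Plek and Nfe2 lie far to the right of the lines, and most mast cell, basophil and eosinophil genes lie to the left, with 1 control array of Cpa3 set apart.

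Among erythroid members, Tfrc, Car2 and Cpox stood furthest above the yardstick. Tfrc, the transferrin receptor that brings iron into cells, was at 10.12, 10.17 and 10.22 on the control arrays and 9.94, 10.10 and 10.25 on the HLX arrays. Car2, a carbonic anhydrase of red cells and other tissues, was at 9.71, 9.90 and 9.74 against 9.73, 9.91 and 9.18. Both pairs of groups overlapped, and for Car2 the third HLX array was more than 0.5 log2 units below every other array. Cpox, an enzyme of haem synthesis, was at 9.66, 9.17 and 8.74 against 9.48, 8.88 and 8.92, with overlap between groups. Zfpm1, the GATA cofactor FOG1, was at 7.67, 7.30 and 7.79 against 7.87, 7.33 and 7.33, again with overlap.

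The other erythroid members sat closer to the yardstick or below it. Klf1, the erythroid transcription factor, was at 6.34, 6.35 and 6.36 on the control arrays and 6.30, 5.88 and 6.26 on the HLX arrays. Its groups did not overlap, and the second HLX array was the low one. Epor, the erythropoietin receptor, averaged 6.57 and 6.51 in the control and HLX groups, and Alas2, the erythroid enzyme that starts haem synthesis, 6.45 and 6.40. Slc4a1 (band 3, the anion exchanger of the red cell membrane) averaged 6.51 and 6.49, Aqp1 (a water channel) 6.61 and 6.48, Ermap (a red cell adhesion protein) 6.81 and 6.76, and Icam4 (another adhesion molecule of red cells) 6.48 and 6.38. Mfsd2b, which exports sphingosine-1-phosphate from red cells and platelets, was at 6.85, 6.77 and 6.41 with the control vector and 6.57, 6.39 and 6.23 with HLX, with overlap between the groups. Blvrb, a biliverdin reductase, averaged 7.14 and 7.09. Below the yardstick on every array were Car1, the red cell carbonic anhydrase, at 5.82 to 6.06, Rhd, a blood group antigen, at 5.22 to 5.47, and Rhag, its partner in the membrane, at 3.83 to 3.94.

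The promoters of the erythroid members are shown because most of them hold a short sequence that the choice of genes did not use. RefSeq promoters (GRCm38.p6, 250 bases before to 50 after the start) were present for 42 of the 50 members. CCACCC, a motif of the type KLF1 binds, was found on either strand in 12 of the 15 erythroid promoters (80%), against 31.5% of all 32851 promoters in the table. It was found in 3 of 14 megakaryocyte promoters (21.4%), 5 of 17 mast cell and basophil promoters (29.4%) and 0 of 2 eosinophil promoters. AGATAA, which GATA factors bind, was in 5 of 15 erythroid, 4 of 14 megakaryocyte, 5 of 17 mast cell and basophil and 1 of 2 eosinophil promoters, against 11.2% of all promoters. Some genes have more than 1 promoter in the table, and counted by gene CCACCC was in 10 of 13 erythroid genes (76.9%) against 34.0% of all genes. The E-box motifs CACGTG and CATGTG and the NF-E2 and AP-1 core TGANTCA were also counted. They were in 0, 1 and 0 of 15 erythroid promoters, against 7.15%, 14.2% and 7.81% of all promoters. In the same order they were in 1, 1 and 3 of 14 megakaryocyte promoters and 0, 4 and 0 of 17 mast cell and basophil promoters. For eosinophil promoters the counts were 0, 0 and 1 of 2. The comparison with all promoters was not matched for base composition. A match is a run of letters and not a measured binding site. The stretches below are 80 bases upstream of the start of Epor (chr9:21963654-21963733, minus strand), Alas2 (chrX:150547337-150547416, plus strand) and Mfsd2b (chr12:4874360-4874439, minus strand), written along the gene's strand, with CCACCC or its complement GGGTGG in capitals. In Alas2 there are 3 matches, each overlapping the next. All of these genes lay within 0.4 log2 units of the yardstick on average.
Epor: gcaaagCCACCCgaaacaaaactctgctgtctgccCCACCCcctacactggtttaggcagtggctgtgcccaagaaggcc
Alas2: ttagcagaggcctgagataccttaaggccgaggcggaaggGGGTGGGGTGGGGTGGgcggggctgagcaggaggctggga
Mfsd2b: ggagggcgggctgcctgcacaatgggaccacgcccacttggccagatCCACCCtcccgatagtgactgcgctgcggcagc

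Of the megakaryocyte members 10 of 12 measured were above the yardstick with either vector. Plek, pleckstrin, a protein kinase C substrate of platelets and other blood cells, was at 9.77, 9.63 and 9.86 on the control arrays and 9.80, 9.80 and 9.14 on the HLX arrays. Nfe2, the transcription factor of platelet formation, was at 9.17, 8.79 and 8.94 against 9.08, 9.16 and 8.79. Groups overlapped for both. Pf4, the chemokine platelet factor 4 stored in platelet granules, was at 10.72, 8.74 and 9.40 with the control vector and 9.62, 9.42 and 8.26 with HLX. The first control array was the highest and the third HLX array the lowest, the groups overlapped, and the SD over all 6 arrays, 0.84, was larger than that of 99.5% of genes. Nbeal2, needed for platelet alpha granules, was at 7.79, 7.95 and 7.83 against 7.85, 7.85 and 8.21, with overlap.

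The remaining megakaryocyte members lay closer to the yardstick or under it. Treml1, a receptor of platelet granules, averaged 7.51 in the control and 7.42 in the HLX group, and Gp5, a subunit of the von Willebrand factor receptor, 7.10 and 7.19, with a control SD of 0.57. Gp9, another subunit of that receptor, averaged 6.61 and 6.69, Vwf, its ligand, 6.78 and 6.77, Tubb1, the beta tubulin of platelets, 6.79 and 6.92, and Ppbp, a platelet chemokine, 6.49 and 6.38. Mmrn1, multimerin, a platelet granule protein, was at 6.05, 5.92 and 6.06 with the control vector and 5.90, 5.84 and 5.51 with HLX. All its arrays were under the yardstick, and its groups did not overlap, with the third HLX array lowest. Clec1b, the podoplanin receptor of platelets, was at 4.09 to 4.25 on all arrays, also under the yardstick. The promoter of Gp5 (chr16:30310814-30310893, minus strand, GRCm38.p6, RefSeq) is shown as the megakaryocyte member that holds AGATAA more than once upstream of its start. Both matches, in capitals, are the complement TTATCT.
Gp5: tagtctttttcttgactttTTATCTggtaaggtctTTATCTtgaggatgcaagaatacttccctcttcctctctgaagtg

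Mast cell and basophil genes were the quietest of the larger groups, and 2 members were the exception. Fcer1g, the signalling gamma chain that the IgE receptor shares with Fc receptors of many myeloid cells, was at 8.39, 8.55 and 8.86 on the control arrays and 8.09, 8.15 and 7.61 on the HLX arrays. All 3 HLX arrays were below all 3 control arrays. Mitf, a transcription factor of mast cells and pigment cells, was at 6.45, 6.61 and 6.91 against 6.95, 6.97 and 6.82, with the groups overlapping. Mitf had 2 probesets, and with their mean in place of the brighter one it lay below the yardstick, leaving 1 member of this lineage above it.

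The other 2 chains of the IgE receptor, both specific to few cell types, were under the yardstick on every array. Fcer1a, the chain that binds IgE, was at 3.82 to 4.53, and Ms4a2, the beta chain, at 4.35 to 4.60. Hdc, which makes histamine, was at 6.24, 6.21 and 6.16 with the control vector and 6.02, 5.98 and 6.14 with HLX, without overlap and near the yardstick. The tryptase gene Tpsb2 was at 5.97, 6.02 and 6.10 against 6.02, 5.97 and 6.14. Its near relative Tpsab1 lay between 4.83 and 5.19 over all arrays. The chymase gene Cma1 averaged 5.21 in the control and 5.11 in the HLX group, the related Mcpt4 5.15 and 5.13, and Prss34, a basophil protease, 5.73 and 5.72. Proteases of these families resemble each other, and how far their probes share signal was not analysed here. Il4, a cytokine of these cells, averaged 5.55 and 5.47, Cd200r3, an activating receptor of basophils and mast cells, 3.89 and 3.91, and Cyp11a1, a steroid-making enzyme, 5.40 and 5.40. None of these had a group mean above the yardstick, and by the level of each single array Hdc passed on 1 array.

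Eosinophil genes were all under the yardstick on all 6 arrays. Prg2, the granule major basic protein, was at 5.36, 5.56 and 5.65 on the control arrays and 5.48, 5.52 and 5.68 on the HLX arrays. Epx, the granule peroxidase, was at 5.25, 5.20 and 5.11 against 5.47, 5.15 and 5.37. Il5ra, the receptor chain for IL-5, was at 4.59, 4.60 and 4.55 against 4.62, 4.45 and 4.79. Groups overlapped for all 3.

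A few mast cell, basophil and platelet genes were high on a single array, the first control array. Cpa3, the carboxypeptidase of mast cell granules, was at 7.47 there and at 4.99 and 5.10 on the other control arrays, and at 4.96, 4.77 and 4.85 on the HLX arrays. That is 5.20-fold above the highest of the other 5 arrays, and only this array put Cpa3 above the yardstick. Mcpt8, a protease gene of basophils, was at 6.60, 5.86 and 5.01 on the control arrays and 5.16, 4.85 and 5.31 on the HLX arrays, so the first control array stood 1.66-fold above the next. Fcer1a was highest there as well, at 4.53 against 3.82 to 4.26 elsewhere, though under the yardstick. Pf4 stood 2.15-fold above its next array.

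Of genes outside the members, Gzmb, which encodes granzyme B, was at 7.66 on that array and between 5.33 and 5.60 on the other 5, and Tph1, the serotonin-making enzyme of mast cells, at 5.85 and between 5.15 and 5.31. Both are in the list of further mast cell and basophil genes and were singled out after their values were seen. Not all genes of the program followed. Hpgds, the prostaglandin D synthase of mast cells and other blood cells, from the same list, was low there, at 6.55 against 7.87 and 8.60 on the other control arrays. Tpsb2, Cma1, Mcpt4, Prss34 and Ms4a2 were each exceeded on at least 1 other array. Over all genes the first control array exceeded the other 5 by 0.5 log2 units or more in 0.607% of genes. The other control arrays did so in 0.371% and 0.351%, and the HLX arrays in 0.622%, 0.647% and 0.582%. Among the members this happened for 3 genes on the first control array and for 0 on each of the other 5. The gap of 0.5 was chosen with these values known, and what set this array apart was not tested.

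**Figure D2:**
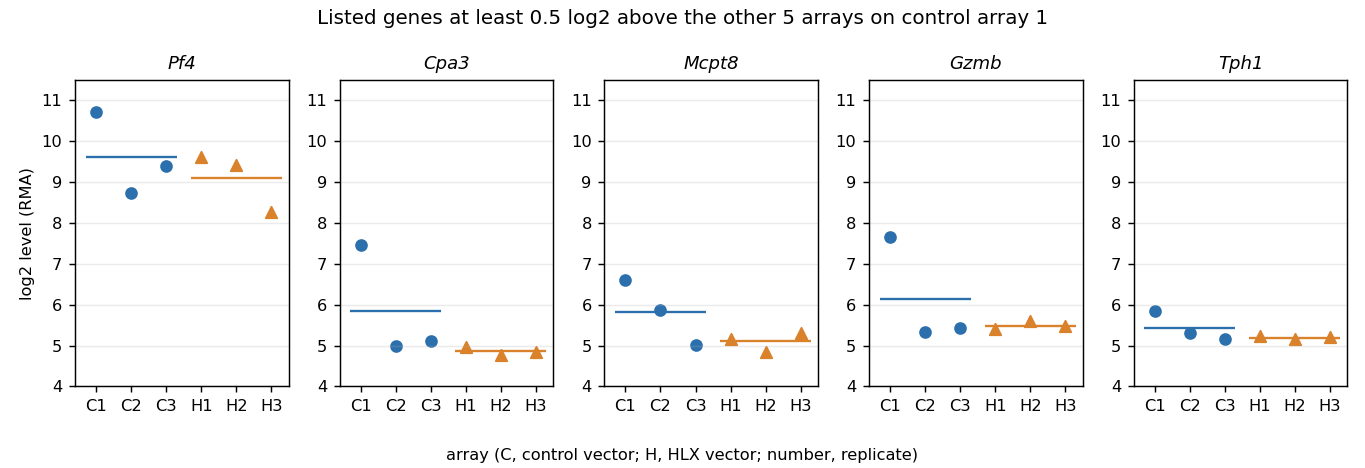
Log2 RMA level on each array (C, control vector; H, HLX vector; replicate number) for the listed genes that exceeded the other 5 arrays by at least 0.5 log2 units on the first control array, with group means as lines. Cpa3 at 7.47 and Gzmb at 7.66 are each more than 2 log2 units above the remaining arrays.

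The promoter of Cpa3 (chr3:20242183-20242262, minus strand) and that of Fcer1a (chr1:173227277-173227356, minus strand) are shown because both genes were highest on the first control array and both hold AGATAA or its complement TTATCT, in capitals, within 100 bases of the start. That of Fcer1g (chr1:171234505-171234584, minus strand), the member with the clearest difference between vectors, holds no AGATAA match and 1 match to the complement of CCACCC, in capitals, 200 bases before the start. All are RefSeq sequences of GRCm38.p6, 80 bases each. Mcpt8, high on the same array, had no match to AGATAA in its promoter, whereas Prss34 and Ms4a2, which were not highest there, also hold it within 100 bases of the start.
Cpa3: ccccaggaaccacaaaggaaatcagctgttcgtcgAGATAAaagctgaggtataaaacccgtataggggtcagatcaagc
Fcer1a: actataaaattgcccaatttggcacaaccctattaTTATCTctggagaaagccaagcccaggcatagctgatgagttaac
Fcer1g: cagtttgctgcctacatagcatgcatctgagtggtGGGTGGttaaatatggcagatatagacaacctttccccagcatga

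Between vectors, no member was called, and a single one, Fcer1g, had a 95% interval that did not include 0. limma (HLX minus control, adjusted over all 19938 genes) gave 0 members and 0 genes (0%) at an adjusted p under 0.05, and the smallest adjusted p of a member was 0.914. At an unadjusted p under 0.05 stood 1 of 46 members, against 4.80% of all genes (958 genes). Without the third control array 5 members stood there (Mfsd2b, Mcpt8, Fcer1a, Fcer1g and Mitf), against 847 of all 19938 genes. Without the first HLX array 2 did (Mmrn1 and Fcer1g), against 1009 of all genes. With the replicate number as a block 2 did (Mfsd2b and Fcer1g), against 1205, and 0 members were called in each setting. In the comparison of all arrays, Fcer1g was the one, lower with HLX, as were 2.36% of all genes at this threshold. Of the members, 6 had groups that did not overlap, 1 higher and 5 lower with HLX, where over all genes 9.19% did not overlap, 4.34% higher and 4.85% lower. Differences were above 0 for 14 and below 0 for 32 members, and for 19 and 27 after median centring or quantile normalization. The count of members without overlap is close to the background share, and it was 3 of 46 after median centring and 2 of 46 after quantile normalization, where 10% of all genes had no overlap, and 4 of 46 after cyclic loess, against 10.4%. The median absolute difference of the members was 0.092 log2 units and that of all genes 0.090.

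**Figure D3:**
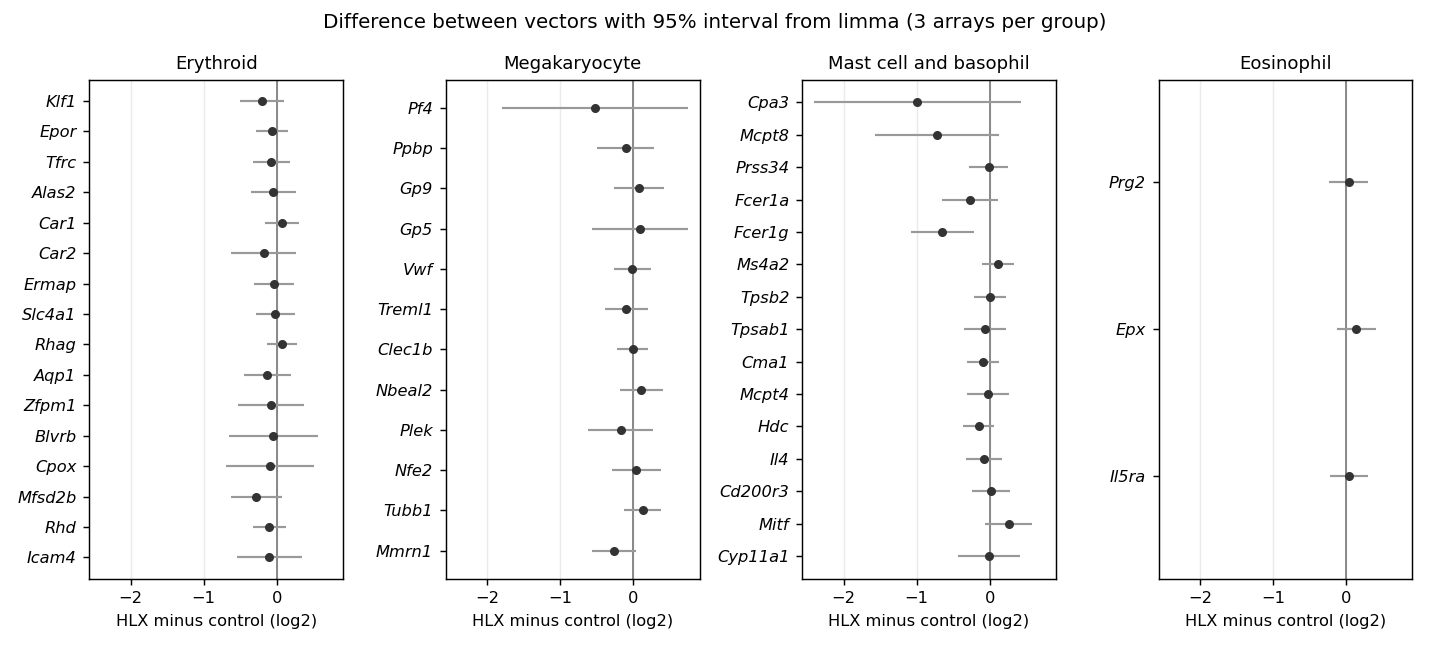
Log2 difference, HLX minus control vector, for each measured member with its 95% interval from limma (3 arrays per group). Every interval crosses 0 except that of Fcer1g, and Cpa3, Mcpt8 and Pf4 have the widest intervals of their lineages.

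Fcer1g was 1.57-fold lower with HLX, with a log2 difference of -0.65 ± 0.18 (SE, n = 3 per group), an unadjusted p from limma of 0.00857 and an adjusted p of 0.914. The 95% interval ran from 1.17-fold to 2.11-fold lower. The nearest control and HLX arrays were 1.18-fold apart, and the exact permutation test, 2-sided, gave 0.1, the smallest p that 3 against 3 arrays allow. The difference was between -0.75 and -0.48 when 1 array was left out. As the gene is used across myeloid cells, the monocyte and macrophage markers are given beside it. Of 9 measured markers 8 were higher with HLX, among them Csf1r, the M-CSF receptor (6.37 ± 0.10 and 7.74 ± 1.22, SD, n = 3) and Cd68 (9.15 ± 0.19 and 9.65 ± 0.22). The summed signal of the 9 on the linear scale ran from 1189 to 1381 on the control arrays and 1591 to 1994 on the HLX arrays. This sum is weighted to bright genes, above all Cd68, whose own groups did not overlap (8.95 to 9.33 and 9.52 to 9.91). Of the 9 markers 5, Adgre1, C1qa, C1qb, C1qc and Mrc1, were under the yardstick on all arrays. By limma 0 of the 9 were called. Mrc1 was lower with HLX without overlap (-0.14 ± 0.090), C1qa, C1qb, C1qc and Cx3cr1 differed by 0.025 to 0.074, and Csf1r on the first HLX array, 6.49, was at the level of the highest control array, 6.48. Of the 9 stem and progenitor markers measured, 8 were lower with HLX, with a median of -0.17 and 0 called. Flt3, a receptor of early progenitors, differed by -0.68 ± 0.16 (limma adjusted p 0.901) and Cd27 by -0.30 ± 0.13, both without overlap. The summed signal of the stem markers ran from 6308 to 6707 on the control arrays and from 5310 to 6143 on the HLX arrays. The part of either set of markers in the difference of Fcer1g was not tested. In bulk samples, fewer cells of a type and less RNA per cell cannot be told apart.

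Erythroid members were close between vectors and mostly a little lower with HLX. Of 16, 14 had a difference below 0, with a median of -0.077 log2 units, against 52.5% of all genes below 0 with a median of -0.0078. Without the second HLX array 7 of 16 were below 0 and the median was 0.010, so the shift rests on that array. Over all genes 47.8% were then below 0, and that array had the lowest median deviation of the 6 over all genes too (-0.045). After median centring, quantile or cyclic loess normalization 13 of 16 were below 0, against 45.6%, 50.5% and 48.8% of all genes. The largest differences were those of Mfsd2b (-0.28 ± 0.15, SE) and Klf1 (-0.20 ± 0.13), with limma adjusted p of 1 each. The groups did not overlap for Klf1 and for Rhag (0.073 ± 0.085), and Rhag was under the yardstick throughout. The 95% intervals of the 16 genes together spanned -0.70 to 0.57, the outer limits belonging to Cpox and Blvrb. Changes in signal of the size of 2-fold lay outside every one of them, given the spread among these 6 samples. For members under or near the yardstick, such as Rhag and Klf1, weak signals are compressed. Their intervals do not bound the change in RNA.

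Megakaryocyte members had no common direction. Differences were below 0 for 7 of 12 with a median of -0.011, and for 5 of 12 after median centring or quantile normalization and 6 of 12 after cyclic loess, with medians of 0.011, 0.0061 and 0.0032. Pf4 differed by -0.52 ± 0.54 and, without the first control array, by 0.03 ± 0.42. Mmrn1 differed by -0.26 ± 0.13, without overlap. Their adjusted p from limma was 1 each. The interval of Pf4, -1.79 to 0.75, leaves changes in both directions possible. For Nfe2 the difference was 0.041 ± 0.14, for Plek -0.17 ± 0.19 and for Nbeal2 0.11 ± 0.13.

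Mast cell and basophil members were below 0 in 11 of 15 cases, with a median of -0.060, and in 9 of 15 after median centring, quantile or cyclic loess normalization. Their summed signal on the linear scale ran from 1025 to 1141 on control and 828 to 884 on HLX arrays. It is weighted to bright members, above all Fcer1g, whose own groups did not overlap (8.39 to 8.86 and 7.61 to 8.15). The separation of the sums is therefore not shown for the other members. In the other lineages the summed signals of the groups overlapped. The groups did not overlap for Cpa3, Fcer1g and Hdc, 3 of 15 members, all lower with HLX, against 4.85% of all genes. For Cpa3 and Hdc the nearest control and HLX arrays were close, at 4.99 and 4.96 and at 6.16 and 6.14. The largest difference, Cpa3 at -0.99 ± 0.61 (adjusted p from limma 1), was -0.18 ± 0.12 without the first control array. Mcpt8 went from -0.72 ± 0.36 to -0.33 ± 0.27 and Fcer1a from -0.27 ± 0.16 to -0.12 ± 0.15 in the same way. Fcer1g in contrast was at -0.75 ± 0.20 without that array. Mitf was higher with HLX by 0.26 ± 0.14 and Hdc lower by 0.15 on the log2 scale (-0.15 ± 0.092), neither called. The 3 eosinophil members differed by 0.034 ± 0.11 (Prg2), 0.14 ± 0.11 (Epx) and 0.040 ± 0.11 (Il5ra).

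**Figure D4:**
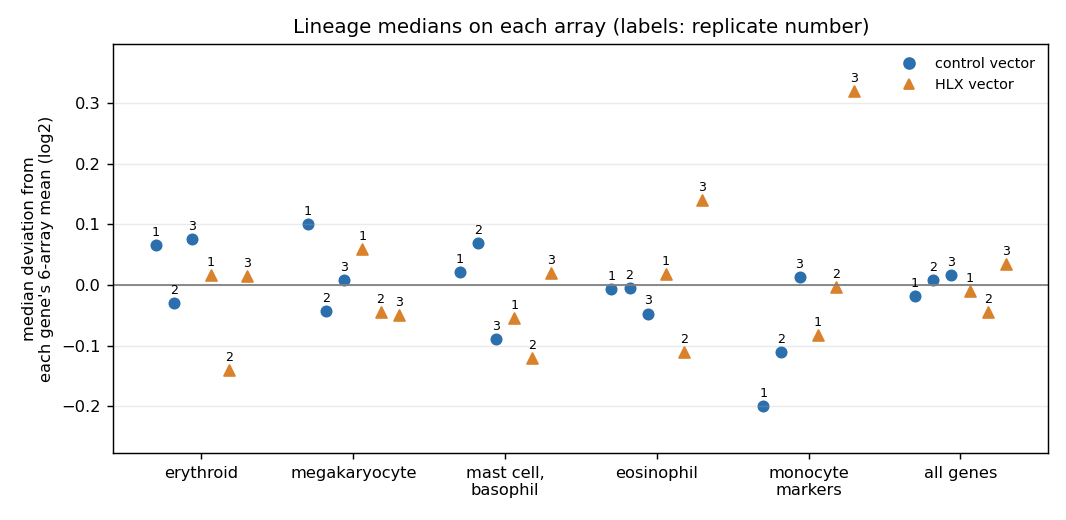
For each array, the median over a list of the deviation of each gene from its mean over the 6 arrays, in log2 units, with control arrays as circles, HLX arrays as triangles and the replicate number above each point. For the erythroid members the second HLX array is lowest at -0.14, while the medians of control and HLX arrays are mixed in every lineage. The monocyte markers have their highest value, 0.32, on the third HLX array.

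Further genes of each program were read from lists that do not repeat the members. Among 18 measured erythroid genes the transcription factors and cofactors Gata1, Tal1, Gfi1b, Lmo2, Ldb1 and Bcl11a were above the yardstick on all 6 arrays, whereas the membrane skeleton genes Ank1 and Epb42, the blood group gene Kel and Trim10 were under it on all 6. Sptb, the beta spectrin gene of the membrane skeleton, averaged 6.42 and 6.31 and was above it on 5 arrays. The embryonic globin gene Hba-x, at 6.37 and 6.43, was close to the yardstick and above it on all 6. The other embryonic globin genes measured, Hbb-y (4.94 and 4.87) and Hbb-bh1 (3.89 and 3.95), were under it on every array. Adult globin genes share probesets with several symbols and were not analysed here. By limma 0 of 18 were called. At an unadjusted p under 0.05 stood Gata1, the master factor of these lineages, higher with HLX (0.27 ± 0.11), and Bpgm, the bisphosphoglycerate mutase of red cells, lower (-0.52 ± 0.11, 1.44-fold).

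All 15 measured genes of haem synthesis and iron handling were above the yardstick with either vector, and 0 were called. Ppox, an enzyme late in haem synthesis, was at 7.30 ± 0.27 with the control vector and 7.90 ± 0.06 with HLX (SD, n = 3), 1.52-fold higher, with an unadjusted p of 0.00386 and an adjusted p of 0.901 from limma. Alas1, the housekeeping counterpart of Alas2, was at 6.75 ± 0.11 and 7.15 ± 0.04, 1.31-fold higher, with an adjusted p from limma of 0.901. Cpox and Alas2, the members that act in the same pathway, differed by -0.097 ± 0.26 and -0.049 ± 0.13.

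Among 29 measured further megakaryocyte and platelet genes 22 were above the yardstick with the control vector and 0 were called. Fli1, Rap1b and Mef2c were the brightest of them. Cd9, a tetraspanin of platelets and other cells, was 1.42-fold higher (0.50 ± 0.18) and F2rl2, a thrombin receptor, 1.26-fold lower (-0.33 ± 0.13), each at an unadjusted p under 0.05 and with adjusted p from limma of 0.975 and 1.

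Of 33 measured further mast cell and basophil genes 19 were above the yardstick with either vector. They included Kit and Gata2, which stem cells also express, and genes of many blood cells such as Cd63 and Alox5ap. The mast cell proteases Mcpt1 and Mcpt2 and the receptors Mrgprb1 and Mrgprb2 were under it on all arrays. The largest difference was that of Hpgds, at -1.05 ± 0.47 (2.07-fold lower with HLX, limma adjusted p 1), with overlap between groups. Without the first control array it was -1.61 ± 0.26 (3.05-fold lower), with an unadjusted p of 0.000644 and an adjusted p of 0.597 from limma. By limma 0 of the 33 were called, and 6 stood at an unadjusted p under 0.05. Syk, the kinase that acts below the IgE receptor and other receptors (0.36 ± 0.095), the leukotriene enzyme gene Alox5 (0.50 ± 0.16) and the integrin gene Itgb7 (0.38 ± 0.14) were higher with HLX. Srgn, the proteoglycan core of granules (-0.32 ± 0.11), Ndst2, which modifies granule heparin (-0.63 ± 0.19), and Stx3 (-0.31 ± 0.12) were lower. The 6 further eosinophil genes measured were within 0.1 log2 units between vectors, and 2 of them, Siglecf and Cebpe, were above the yardstick.

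Markers of other cells that a culture of this kind could hold were also read. All 10 neutrophil markers averaged under the yardstick in both groups. Of these, Cxcr2 was at 5.81 ± 1.19 with HLX against 4.47 ± 0.24 (SD, n = 3), and it passed the yardstick on 1 HLX array. Of the B cell, T cell and stromal or endothelial markers 3 of 6, 2 of 6 and 3 of 8 were above it with either vector, and 0 of these 20 genes stood at an unadjusted p under 0.05.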

How the data were processed

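Each deposited value is the log2 signal of 1 probeset on 1 array, which the authors computed with RMA and Affymetrix Power Tools (version 1.178, per the submitters' processing notes). The range of the values gave the scale, and no build is named in the labels. RNA of 5000 to 10000 sorted cells was extracted and 3 ng amplified before labelling, per the labels' protocols. RMA normalizes between arrays and compresses weak signals. Of 35556 probesets, 21789 had 1 gene symbol, 1621 several and 12146 were unlisted. The brightest probeset per gene by mean over 6 arrays was kept, without a filter, giving 19938 genes. Having 3 arrays per group limits precision.

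The vectors were compared with limma 3.58.1 in R 4.3.3 (lmFit, eBayes, 4 residual and 3.32 prior degrees of freedom, Benjamini-Hochberg over all genes). The SE is the moderated one. On 10 simulated data sets of 19938 genes with 200 changed, limma recovered 71.8% of 2-fold and 94.8% of 4-fold changes for this comparison. The simulated noise was independent between genes, and having 200 changed genes eases the adjusted threshold. In the data 0 genes were called, and Hlx, 7.75-fold higher, had an adjusted p from limma of 0.0782. The simulated shares therefore do not tell how many real changes would be called here. Deviations of same-numbered arrays correlated at 0.200, 0.00854 and 0.143 for replicates 1, 2 and 3. Control replicate 1 correlated at 0.0433 and -0.225 with HLX replicates 2 and 3. Control replicate 2 correlated at -0.122 and 0.105 with HLX replicates 1 and 3. Control replicate 3 correlated at -0.0977 and -0.0576 with HLX replicates 1 and 2. Whether arrays of like number were prepared as pairs was not tested. Members at an unadjusted p under 0.05, the 4 brightest of each lineage (1 for eosinophils) and the 2 largest differences are given on every array, others by means or ranges. Members and lists were chosen with earlier results of these data known. Promoter sequences are from RefSeq (GRCm38.p6). Alternatives were other normalizations, priors, array weights, filters, probeset choices, left-out arrays and other off levels.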

Additional observations from a re-analysis of the deposited data

How the results depend on the processing

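No member was called under any alternative tried, and the medians of the 4 lineages, the counts of members above the off level and the differences of single members moved by less than the spread between replicates except as follows. Members without overlap numbered 6 (9.19% of all genes), 3 after median centring and 2 after quantile normalization (10% of all genes each), 1 among the 24 members above the median level of all probesets (10.1% of such genes), and 8 to 12 with 1 array left out (16.7% to 24.1% of all genes). Leaving out replicate 1 of both groups, which was added once the data had been seen, left 11 without overlap, against 31.2% of all genes, and moved Car1 to 0.17 and Tubb1 to 0.00. Among brighter genes 2 mast cell and basophil members remained, with a median difference of -0.19. With 1 array left out, the median difference ran from -0.11 to 0.010 for erythroid, -0.069 to 0.076 for megakaryocyte, -0.12 to -0.0094 for mast cell and basophil and -0.026 to 0.12 for eosinophil members; the megakaryocyte value of 0.076 was without the first control array. Members above the off level ran from 24 to 26 (control) and 24 to 25 (HLX) with 1 array left out, and 12 in each group with the 99th percentile. A trended and robust prior called 1 gene, no member, and with 1 array left out 0 genes were called. With the replicate number as a block, 0 genes and 0 members were called, Fcer1g had an unadjusted p of 0.0230 from limma, and 1205 genes stood at an unadjusted p under 0.05 against 958 without it. Arrays of like number correlated best for control replicates 1 and 3 but not for replicate 2. Genes under the off level may have differences that these arrays cannot show.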
